A study of Homo sapiens with 148 samples.

Results

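The pancreatic progenitor transcription factors described here are PDX1, PTF1A, NKX6-1, NKX6-2, MNX1, SOX9, NR5A2 and TCF7L2. They were taken by gene name from a table of mean transcript abundance, where all 8 were found among 49085 gene names, each with a single entry. RNA-seq was performed in H9 cells, an established human embryonic stem cell (hESC) line that is wild type, and in cells derived from it by a pancreatic differentiation protocol: definitive endoderm (DE, day 4), the primitive gut tube stage (PGT, day 7), pancreatic progenitors (PP, day 14) and organoids holding stem cell-derived β-like cells (SC-β, day 35). The protocol passes from Activin A and a Wnt agonist to KGF, then to retinoic acid with hedgehog and BMP inhibitors up to PP, and last to Alk5 and Notch pathway inhibitors with thyroid hormone. A further set of cells is named only PH in the labels, which give neither its day nor its place in the order. All stages therefore come from a single cell line, and each is a bulk culture that may hold more than 1 kind of cell. The 12 RNA-seq samples, 2 per stage, are part of a series of 148 samples. The table gives 1 value per gene and stage, the authors' mean in TPM, a unit that corrects transcript counts for length and scales each library to the same total. The columns used here hold no single replicates, so no value has an error, the read count behind each value is unknown and no test between stages could be run. In bulk RNA, fewer cells of a type and less RNA per cell cannot be told apart.

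The pancreas forms from foregut endoderm, in which PDX1 marks the region that will become pancreas and duodenum. PTF1A joins PDX1 in multipotent progenitors and later drives acinar fate, whereas NKX6-1 and NKX6-2 favor the duct and endocrine branch. MNX1 acts early in the dorsal bud and again in β cells, SOX9 maintains the progenitor pool, NR5A2 is a nuclear receptor of acinar cells and of pluripotent cells, and TCF7L2 is a DNA-binding effector of Wnt signaling. Several of these factors also work outside the pancreas: PTF1A in inhibitory neurons of the dorsal spinal cord and cerebellum, NKX6-1, NKX6-2 and MNX1 in the ventral spinal cord, and SOX9 in cartilage, neural crest and glia.

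The 8 genes lie on 6 chromosomes in GENCODE version 44 on GRCh38, the build called hg38 in the submitters' processing notes. PDX1 (ENSG00000139515.6) reads forward on chromosome 13, 27920000 to 27926313. PTF1A (ENSG00000168267.7) reads forward on chromosome 10, 23192312 to 23194245. NKX6-1 (ENSG00000163623.10) occupies the reverse strand of chromosome 4 between bases 84491985 and 84499292. NKX6-2 (ENSG00000148826.9) reads in reverse on chromosome 10, 132783179 to 132786147. MNX1 (ENSG00000130675.15) reads in reverse on chromosome 7, 156994051 to 157010663. SOX9 (ENSG00000125398.8) reads forward on chromosome 17, 72121020 to 72126416. NR5A2 (ENSG00000116833.14) reads forward on chromosome 1, 200027614 to 200177420. TCF7L2 (ENSG00000148737.18) reads forward on chromosome 10, 112950247 to 113167678, the longest span of the 8 at 217432 bp.

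Sequences before the transcription start, taken from RefSeq on GRCh38.p14, were matched for 4 of the 8 members (NKX6-1, MNX1, NR5A2 and TCF7L2) and not for PDX1, PTF1A, NKX6-2 and SOX9. Those of MNX1, NKX6-1 and NR5A2 are shown because they belong to genes whose RNA appeared at different points of the differentiation. The MNX1 window (chr7:157010664-157010913, reverse strand) covers the 141 bp between MNX1 and its divergent antisense neighbor MNX1-AS1 and the first bases of the latter. The NKX6-1 window is chr4:84499293-84499542 on the reverse strand. The NR5A2 window lies before an internal start of that gene, at chr1:200042341-200042590 on the forward strand. Each is written 5′ to 3′ on the strand of its gene, and capitals mark matches to CCAAT or, in NR5A2, to the forkhead motif TGTTTAC, on either strand.
MNX1: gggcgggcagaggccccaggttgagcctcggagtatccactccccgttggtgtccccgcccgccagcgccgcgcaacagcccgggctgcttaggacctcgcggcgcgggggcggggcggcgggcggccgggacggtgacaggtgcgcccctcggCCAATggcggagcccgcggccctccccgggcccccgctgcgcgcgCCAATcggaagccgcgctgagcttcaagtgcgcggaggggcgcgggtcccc
NKX6-1: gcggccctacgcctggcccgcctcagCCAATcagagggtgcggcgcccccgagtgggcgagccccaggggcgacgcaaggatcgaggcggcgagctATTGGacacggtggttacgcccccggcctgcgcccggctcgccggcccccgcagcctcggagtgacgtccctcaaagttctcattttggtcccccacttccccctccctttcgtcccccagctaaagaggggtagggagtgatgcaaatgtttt
NR5A2: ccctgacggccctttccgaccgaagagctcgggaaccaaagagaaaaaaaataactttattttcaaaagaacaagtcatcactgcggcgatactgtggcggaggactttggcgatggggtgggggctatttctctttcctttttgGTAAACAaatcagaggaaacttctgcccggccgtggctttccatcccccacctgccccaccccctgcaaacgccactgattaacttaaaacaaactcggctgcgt
CCAAT was found 2 times each in the MNX1 and NKX6-1 windows and the forkhead motif 1 time in NR5A2, and no match overlapped another. Also searched, and without a match in these 3 windows, were the TATA box (TATAAA, in 10.7% of promoters), the GATA motif (AGATAA, 9.17%) and a homeodomain motif (TAATTA, 4.35%). The NR5A2 window at the outermost start (chr1:200027460-200027709), not printed because it overlaps annotated exon bases of the gene, held a TATA box and GATA motifs and 0 CpG dinucleotides. CCAAT was in 32.0% of all 35116 promoter windows of the same length, and TGTTTAC in 2.98%. A match describes the letters of the window and not binding by a factor. The MNX1 window had 36 CpG dinucleotides, more than 95.1% of promoters, the NKX6-1 window had 23 and the NR5A2 window had 13, against a median of 11.

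**Figure D1:**
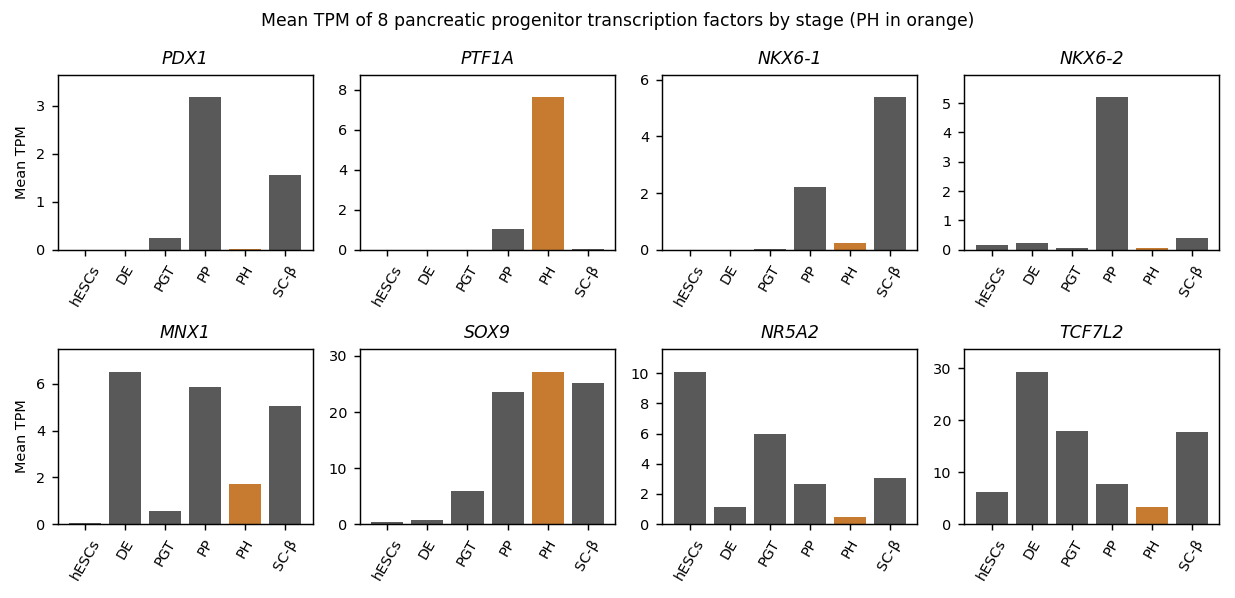
Mean TPM (vertical axes, linear from 0, a separate scale for each gene) of the 8 factors at the 6 stages (horizontal axes), 1 bar per stage mean, with PH in orange and no error bars because only means are given. PDX1 and NKX6-2 were highest in PP, NKX6-1 in SC-β organoids and PTF1A in PH, whereas SOX9 stayed between 23.7 and 27.2 TPM in PP, PH and SC-β organoids.

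All 8 factors reached 1 TPM together only in PP. That level was reached by 2 members in hESCs and by 3 each in DE and PGT. In PP all 8 reached it, in PH 4 and in SC-β organoids 6. Of all 49085 gene names, 16784 reached 1 TPM in hESCs, 21619 in DE and 19675 in PGT. The numbers were 19225 in PP, 19548 in PH and 24571 in SC-β organoids. PTF1A was just past that level in PP, at 1.02 TPM, and the members were chosen as genes known for PP. The summed level of the 8 genes went from 17.0 TPM (hESCs) to 51.6 TPM (PP), and it was highest in SC-β organoids at 58.4 TPM, where SOX9 and TCF7L2 made up most of it. Their individual courses differed. PDX1, NKX6-1 and NKX6-2 were near 0 until PP, MNX1 had a first maximum in DE, NR5A2 was highest in hESCs, and PTF1A was highest outside the ordered stages, in PH. For comparison, of 28202 genes with at least 1 TPM anywhere, 4.66% had their highest value in PP, 13.5% in PH and 38.8% in SC-β organoids. The plot of mean TPM by stage shows each course on its own scale.

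PDX1, a homeodomain factor of pancreatic progenitors and β cells, was listed at 0 in hESCs and DE and was at 0.243 TPM in PGT, 3.17 TPM in PP, 0.0173 TPM in PH and 1.57 TPM in SC-β organoids. Its PP level was above 72.3% of gene names in that stage, so PDX1 RNA was present but not abundant. From PGT to PP its log2 ratio of (TPM + 1) was 1.75, and from PP to SC-β organoids it was -0.70, less than 2-fold on that scale. The median of all genes compared at the latter step was 0.45, and 3.71% of them had a lower ratio than PDX1. The TPM value itself was 2.02 times as high in PP as in SC-β organoids. With stage totals recomputed without the 100 most abundant genes, the log2 ratio from PP to SC-β organoids was -1.05, past 2-fold. PDX1-AS1, an antisense gene that lies 2701 bp from PDX1 on the reverse strand of chromosome 13, also peaked in PP, at 0.811 TPM.

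PTF1A, a basic helix-loop-helix factor of pancreatic progenitors and acinar cells, was listed at 0 in hESCs, DE and PGT, and was at 1.02 TPM in PP, 7.61 TPM in PH and 0.0229 TPM in SC-β organoids. Its level in PH exceeded that in PP by a log2 ratio of 2.09, a TPM ratio of 7.43. In PH the highest PTF1A of the 6 stages stood beside PDX1 at 0.0173 TPM. Partners and targets of PTF1A in acinar cells were compared next. RBPJL and RBPJ were picked out after their values were seen. RBPJL, with which PTF1A forms its acinar complex, was listed at 0 in PP, PH and SC-β organoids. The earlier partner RBPJ was at 38.0 TPM in PP and 55.3 TPM in PH. Of 18 acinar genes measured from a list of 20, 3 were at least 2-fold higher and 1 lower in PP than in PGT. At that step 6.30% of all genes compared were higher and 7.46% lower. From PP to PH, 1 acinar gene (CLPS, a colipase gene) was higher and 1 (GP2) lower, against 11.5% and 12.8% of all genes compared. In PH, 5 of the 18 acinar genes had their highest value, and 7 had it in SC-β organoids. Of the 28202 genes that reached 1 TPM anywhere, 13.5% were highest in PH and 38.8% in SC-β organoids. Among the 5, CPB1, CTRB2 and PNLIPRP1 were below 1 TPM at every stage. SPINK1, a trypsin inhibitor, and PRSS2, a trypsinogen, were the most abundant of the 18, both in SC-β organoids, at 119.9 and 35.1 TPM. SPINK1 was at 84.9 TPM in PP and 75.6 TPM in PH.

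Genes of inhibitory neurons of the dorsal spinal cord, the other main site of PTF1A, had their highest values in PH as well. Of 13 such genes, all 13 were highest in PH, and 10 were at least 2-fold higher in PH than in PP while 0 were lower. The other 3 were PAX8, TFAP2B and GSX1. Of the 21944 genes compared, 11.5% were higher and 12.8% lower. The median log2 ratio of the 13 was 3.20, against -0.10 for the genes compared. The summed level of the list was 427 TPM in PH and between 9.55 and 90.3 TPM elsewhere, and none of the 13 was listed at 0 in PH. The most abundant were the LIM-homeodomain gene LHX1, at 92.1 TPM, and PAX8, at 59.98 TPM. LHX1 was also at 56.8 TPM in DE, and PAX8 was already at 39.96 TPM in PP. The following genes were picked out after their values were seen. LBX1, a homeobox gene of dorsal interneurons, was listed at 0 in PP and was at 24.4 TPM in PH. KIRREL2, an adhesion gene known as a PTF1A target in neural tissue, was at 7.23 TPM in PP and 25.7 TPM in PH. GAD1 and SLC32A1, which make and package the transmitter GABA, were at 19.7 and 8.16 TPM in PH, against 2.38 and 0.00717 TPM in PP. However, GAD1 was also at 10.8 TPM in hESCs and 11.4 TPM in DE. GSX1 stayed at or below 0.341 TPM at every stage. The part of such cells in the PTF1A level was not tested.

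**Figure D2:**
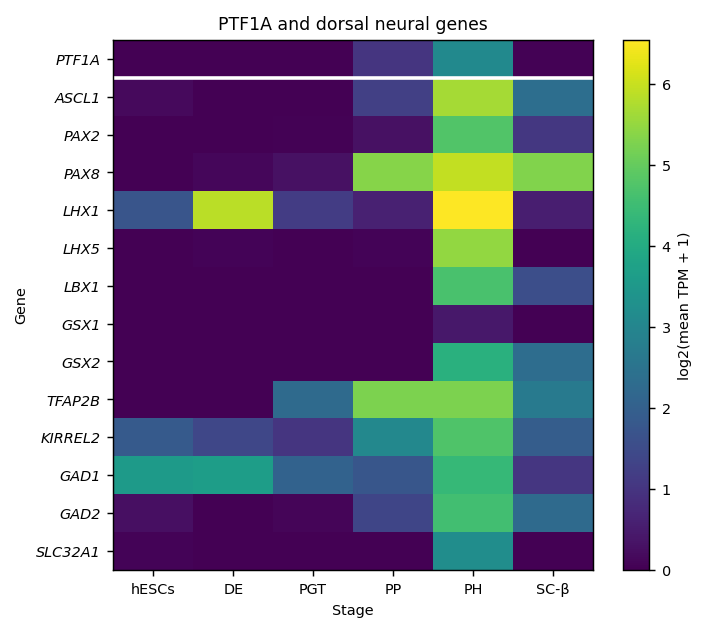
Heat map of log2(mean TPM + 1) (color scale from 0) for PTF1A (top row, above the white line) and 13 dorsal neural genes (rows) at the 6 stages (columns). In PH, PTF1A was at 7.61 TPM and all 13 genes had their highest value, while PAX8 and TFAP2B were also high in PP.

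NKX6-1, a homeodomain repressor that is kept on in β cells, was at 0.00917 TPM in hESCs, listed at 0 in DE, and at 0.0153 TPM in PGT, 2.204 TPM in PP, 0.256 TPM in PH and 5.37 TPM in SC-β organoids. It was the only member with its highest value in SC-β organoids. The increase from PGT to PP had a log2 ratio of 1.66. From PP to SC-β organoids the ratio was 0.99, just under 2-fold on the scale with a pseudocount of 1. It was 1.25 with a pseudocount of 0.1, 0.77 after rescaling by median ratios and 0.905 without the 100 most abundant genes. The median of all genes compared at this step was 0.45.

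NKX6-2, the paralogue of NKX6-1, had a different course. It was at 0.174 TPM in hESCs, 0.219 TPM in DE, 0.0766 TPM in PGT, 5.20 TPM in PP, 0.0667 TPM in PH and 0.412 TPM in SC-β organoids. In PP it was above NKX6-1, and in SC-β organoids it was below. The PP value was 12.6 times the next highest. Its log2 ratios of 2.52 from PGT to PP and -2.13 from PP to SC-β organoids stayed past 2-fold after both rescalings. Only 1.84% of the 25090 genes compared were at least 2-fold lower in SC-β organoids than in PP. The third gene of the family, NKX6-3, was listed at 0 in hESCs, DE, PGT and PH, and was at 4.46 TPM in PP, with 5.23 TPM in the organoids. All 3 NKX6 genes were thus present in PP, and 2 of them, NKX6-1 and NKX6-3, were above 1 TPM in SC-β organoids.

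MNX1, a homeodomain factor of the notochord, dorsal pancreas and motor neurons, had similar levels at separate stages. It was at 0.0655 TPM in hESCs, 6.52 TPM in DE, 0.544 TPM in PGT, 5.85 TPM in PP, 1.71 TPM in PH and 5.04 TPM in SC-β organoids. The steps into and out of DE had log2 ratios of 2.82 and -2.28, and that from PGT to PP was 2.15. DE, PP and SC-β organoids were close together, and which of DE and PP is higher depends on the scaling: the log2 ratio of DE to PP was 0.13 as deposited, -0.07 after rescaling by median ratios and -0.13 without the 100 most abundant genes. MNX1-AS1, which starts 141 bp from MNX1 and shares no exon sequence with it, was at 0.0512 TPM in hESCs, 2.28 TPM in DE, 0.413 TPM in PGT, 1.32 TPM in PP, 0.142 TPM in PH and 0.680 TPM in SC-β organoids. It too was higher in DE and PP than in PGT.

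Because NKX6-1, NKX6-2 and MNX1 are also expressed in the ventral spinal cord, 12 genes of its progenitors and motor neurons were examined. From PGT to PP, 3 of the 12 (among them SIM1 and SLC18A3) were at least 2-fold higher and 0 lower. The shares of all genes compared were 6.30% higher and 7.46% lower. The median log2 ratio of the 12 was 0.28, against -0.10 for all genes compared. The summed level of the list was between 2.89 and 14.9 TPM in hESCs, DE and PGT and between 20.6 and 34.3 TPM in PP, PH and SC-β organoids. IRX3 and LHX4 were the most abundant, at 12.7 and 8.41 TPM in SC-β organoids, and IRX3 was already at 9.67 TPM in DE. The motor neuron determinant LHX3 was listed at 0 in DE, PGT and PP, and OLIG2 did not exceed 0.794 TPM at any stage. The part of such cells in the levels of the 3 factors was not tested.

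SOX9, an HMG-box factor, was the most abundant member in PP, PH and SC-β organoids. It was at 0.374 TPM in hESCs, 0.770 TPM in DE, 5.90 TPM in PGT, 23.7 TPM in PP, 27.2 TPM in PH and 25.2 TPM in SC-β organoids. The increase came in 2 steps, with log2 ratios of 1.96 from DE to PGT and 1.84 from PGT to PP. Against PP the log2 ratios were 0.19 in PH and 0.09 in SC-β organoids, both well under 2-fold, and the latter turned to -0.17 after rescaling by median ratios. Of its closest paralogues, SOX10, a neural crest and glial gene, was at 8.69 TPM in PP and at or below 0.988 TPM at every other stage, and SOX8 lay between 0.555 and 5.53 TPM. SOX9-AS1, whose span covers all 5397 bp of SOX9 on the opposite strand while its exons share no base with those of SOX9, was highest in PP at 4.81 TPM.

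Genes known to accompany SOX9 in different tissues were compared from PGT to PP. At that step 6.30% of all genes compared were at least 2-fold higher and 7.46% lower. Of 8 ductal genes, 1 was at least 2-fold higher and 2 were lower, and the most abundant were KRT19, at 1064 TPM in PGT and 170.5 TPM in PP, and SPP1, at 22.6 and 73.4 TPM, which had its maximum of 837.3 TPM in hESCs. Of 14 cartilage genes, 4 were higher and 3 were lower. The main cartilage collagen, COL2A1, was at 92.9 TPM in PGT and 364.3 TPM in PP, with 132.7 TPM in the organoids. COL9A2, another cartilage collagen, was highest in DE, at 184.1 TPM. Of 10 glial genes, 5 were higher and 0 lower. The most abundant glial gene, SLC1A3, was at 100.1 TPM in SC-β organoids against 20.4 TPM in PP. S100B, listed at 0 in PGT and at 28.7 TPM in PP, was picked out after its values were seen. The summed levels of the cartilage and glial lists were 529.4 and 125.5 TPM in PP, 174.4 and 65.8 TPM in PH, and 306.4 and 143.2 TPM in the organoids. Of 10 mesenchymal genes, all 10 were at least 2-fold higher in PH than in PP and all 10 in SC-β organoids than in PP. Of all genes compared, 11.5% were higher in PH than in PP and 20.7% in SC-β organoids than in PP. In SC-β organoids the list was led by COL3A1, at 770.7 TPM, followed by COL1A2, at 508.8 TPM. In PH COL1A2 was the higher, at 434.9 TPM against 348.6 TPM for COL3A1. The ductal list summed to 447 TPM in PP, 144 TPM in PH and 479 TPM in the organoids. The list sums rest largely on a few abundant genes, such as COL2A1 in the cartilage list, and do not measure amounts of cells. The part of any of these cells in the SOX9 level was not tested.

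NR5A2, a nuclear receptor, was at 10.1 TPM in hESCs, 1.11 TPM in DE, 5.998 TPM in PGT, 2.67 TPM in PP, 0.497 TPM in PH and 3.04 TPM in SC-β organoids. It was the only member with its highest value in hESCs. The level in DE was lower than in hESCs by a log2 ratio of -2.40 and that in PGT was higher than in DE by 1.73, so that DE was a trough between hESCs and PGT. From PGT to PP the ratio was -0.93, less than 2-fold on the scale with a pseudocount of 1, and -1.14 with a pseudocount of 0.1. Its paralogue NR5A1 did not exceed 0.200 TPM at any stage.

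TCF7L2 was the only member at 1 TPM or more in all 6 stages. It was at 6.24 TPM in hESCs, 29.3 TPM in DE, 17.9 TPM in PGT, 7.79 TPM in PP, 3.21 TPM in PH and 17.7 TPM in SC-β organoids. The log2 ratio of DE to hESCs was 2.07 and that of PP to PGT was -1.10. The ratio of 1.09 from PP to SC-β organoids was 0.84 after rescaling by median ratios, below 2-fold, and that of -1.06 from PP to PH was -0.89. Of the other TCF/LEF factors, TCF7 and TCF7L1 were also higher in DE than in hESCs, at 15.3 and 15.6 TPM against 4.34 and 5.47 TPM. LEF1 followed another order, with 0.933 TPM in DE, 24.5 TPM in PP, 25.0 TPM in PH and 45.2 TPM in SC-β organoids. In PP, PH and SC-β organoids LEF1 was thus the most abundant of the 4 genes, whereas TCF7L2 was in hESCs, DE and PGT. Of 10 genes that respond to Wnt signaling, 4 were at least 2-fold higher and 2 (CCND1 and RNF43) lower in DE than in hESCs, where 28.2% of all genes compared were higher and 5.55% lower. CCND1, a cyclin, was at 67.1 TPM in DE against 136.6 TPM in hESCs, and SOX17, an endoderm factor, was at 96.1 TPM in DE against 3.22 TPM in hESCs.

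**Figure D3:**
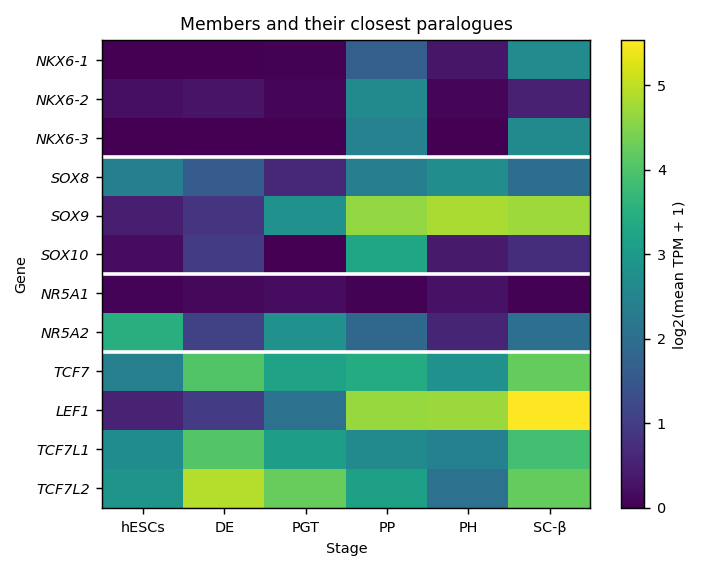
Heat map of log2(mean TPM + 1) (color scale from 0) for members and their closest paralogues (rows, with white lines between the NKX6, SOX, NR5A and TCF/LEF groups) at the 6 stages (columns). NKX6-2 was high only in PP while NKX6-1 and NKX6-3 were also above 5 TPM in SC-β organoids, and LEF1 was above TCF7L2 in PP, PH and SC-β organoids.

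The members were then counted against all genes at each step. A gene was counted as changed when its log2 ratio of (TPM + 1) was at least 2-fold, among genes at 1 TPM or more in either stage, and the counts are descriptions of 2 means. From hESCs to DE, 2 members were higher (MNX1 and TCF7L2), as were 28.2% of the 22514 genes compared, and 1 was lower (NR5A2), as were 5.55%. From DE to PGT, 2 were higher (SOX9 and NR5A2) against 4.94% of genes, and 1 was lower (MNX1) against 10.6%. From PGT to PP, 6 of the 8 were higher, namely PDX1, PTF1A, NKX6-1, NKX6-2, MNX1 and SOX9, against 6.30% of 21378 genes, and 1 was lower (TCF7L2) against 7.46%. PTF1A is counted there by the pseudocount, since it was listed at 0 in PGT. From PP to SC-β organoids, 1 was higher (TCF7L2) against 20.7%, and 1 was lower (NKX6-2) against 1.84%. From PP to PH, 1 was higher (PTF1A) against 11.5%, and 6 were lower, namely PDX1, NKX6-1, NKX6-2, MNX1, NR5A2 and TCF7L2, against 12.8%. The PGT to PP step thus held the largest count of members that were higher, and the PP to PH comparison the largest count that were lower. The members were chosen as genes known for PP, with earlier results from these data in view, so the count at PP is not independent of the choice. The median log2 ratio of the members was 1.70 from PGT to PP and -1.31 from PP to PH, where the medians of all genes compared were -0.10 and -0.10. The median of all genes was 0.58 from hESCs to DE and 0.45 from PP to SC-β organoids. Rescaling by median ratios brought these medians to 0.21 and 0.23, and leaving out the 100 most abundant genes brought them to 0.51 and 0.28, so the values at these steps include a shift shared by most genes.

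**Figure D4:**
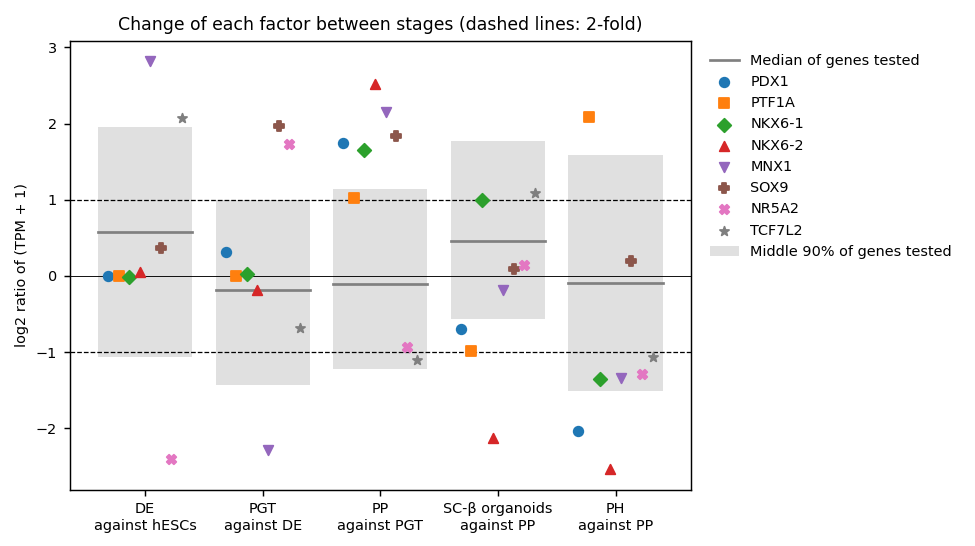
Log2 ratio of (mean TPM + 1) (vertical axis) of each member (symbols) in 5 comparisons of stages (horizontal axis), with gray boxes for the middle 90% of the genes compared, gray lines for their median and dashed lines at 2-fold. From PGT to PP, 5 members lay above the box and PTF1A lay inside it, and from PP to PH, PDX1 and NKX6-2 lay below the box and PTF1A above it.

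Other transcription factors of the pancreas did not move as a block with the members. Of 12 factors of the foregut and pancreatic progenitors, 1 was at least 2-fold higher in PP than in PGT and 8 were lower, against 6.30% and 7.46% of all genes compared. HHEX, a homeobox gene of the foregut, was at 137.3 TPM in PGT and 8.03 TPM in PP, and HES1, a Notch target, was at 68.7 and 44.4 TPM. Of 12 factors of the endocrine lineage, 4 were higher and 1 lower in PP than in PGT, and 6 were higher and 0 lower in SC-β organoids than in PP, against 20.7% and 1.84% of all genes at the latter step. ISL1 was highest in PGT, at 58.3 TPM. Of 14 β-cell genes, many of them downstream of PDX1 and NKX6-1, 8 were higher and 1 lower in SC-β organoids than in PP, among them INS, at 298.1 against 6.93 TPM, and the potassium channel subunit gene ABCC8, at 38.3 against 4.27 TPM. MAFA, which works with PDX1 at the insulin promoter, was at 0.401 TPM in SC-β organoids, below its 1.25 TPM in hESCs.

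The genes whose course over the 6 stages was most like that of each member were found by Pearson's r of log2(TPM + 1) among 13166 or 13167 named genes that reached 5 TPM anywhere. With 6 points per gene, high values are common and carry no test. The nearest to PDX1 were HKDC1 (r = 0.994), a hexokinase-like gene, CDX1 (0.994), a homeobox gene of the intestine, and PDGFC (0.983). HKDC1 and CDX1 were at 5.32 and 5.32 TPM in PP. The nearest to NKX6-1 were CDH17 (0.9995), an intestinal cadherin, UGT2B7 (0.999) and KCNK16 (0.998), a potassium channel gene of islets. CDH17 was at 12.6 TPM in SC-β organoids against 3.74 TPM in PP. The nearest to NKX6-2 were APLN (0.999), HLA-DMB (0.997) and IGKC (0.996), which share a single high value in PP. APLN, which encodes the peptide apelin, was at 10.3 TPM in PP and at most 0.599 TPM elsewhere. The nearest to PTF1A were ACTR1A (0.991), GDAP1 (0.985) and REM2 (0.983), and ACTR1A was at 51.5 TPM or more at every stage. The nearest to MNX1 were MACROD1 (0.985), COL9A1 (0.983) and CUL3 (0.975), and those to SOX9 were PIGH (0.995), FRMD4B (0.993) and KAT8 (0.991). For NR5A2 they were MRPL34 (0.991), GULP1 (0.983) and SNHG12 (0.981), and for TCF7L2 they were XKR6 (0.997), SMCR8 (0.995) and PPP6R1 (0.995). GULP1, an engulfment adaptor gene, also had its trough in DE between hESCs and PGT, with 115.7 TPM in hESCs, 12.9 TPM in DE and 65.3 TPM in PGT. Several of the other neighbors, such as KAT8 and CUL3, varied less than 2-fold over the stages.

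The stages were checked against marker genes. POU5F1, a pluripotency factor, was highest in hESCs (1449 TPM), SOX17 in DE (96.1 TPM), HNF4A in PGT (33.7 TPM) and INS in SC-β organoids (298.1 TPM). PP held PDX1, NKX6-1, NKX6-2 and PTF1A at between 1.02 and 5.20 TPM. These genes are members chosen as genes known for PP, so their levels are not an independent check of that stage. Of them, NKX6-1 was highest in SC-β organoids and PTF1A in PH. PH has no label to check, and SOX17 was listed at 0 there.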

How the data were processed

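RNA-seq of 12 samples, 2 at each of 6 stages, was used, and the ChIP-seq, CUT&Tag and ATAC-seq samples were not used here. The authors removed ribosomal RNA from total RNA (a stranded mRNA kit is also named in the labels), aligned paired-end reads to hg38 with HISAT2 2.2.0, and computed TPM per gene with StringTie 2.1.6. The deposited TPM values are the authors' means over the replicates of each stage. The annotation and the strand setting are not given in the sources used here. The 50451 rows were reduced to 49085 names by summing rows of the same name.

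A pseudocount of 1 TPM was added before each log2 ratio, and 2-fold was counted among genes at 1 TPM or more in either stage. The 8 members and the gene lists were chosen with earlier results of these data known. All members, their paralogues and antisense genes are named, with the 2 most abundant genes of each list and the 3 genes most like each member (at 5 TPM or more, leaving out names of clones, LINC genes, pseudogenes and antisense genes). Other genes were named after their values were seen. Some genes that this rule would name are not reported here. The antisense gene PDX1-AS1 was placed by its current name in RefSeq, and 2 acinar genes, PNLIP and AMY2A, were not used here. Alternatives were a pseudocount of 0.1 TPM, rescaling by median ratios over the 13938 genes that reached 1 TPM throughout, totals without the 100 most abundant genes, a 4-fold limit, hESCs as reference, the highest row of a name, and no filter. The calculations were tested on simulated data. Python 3.11.15 with numpy 2.4.6, pandas 2.3.3 and matplotlib 3.10.9 was used.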

Additional observations from a re-analysis of the deposited data

How the results depend on the processing

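No paired analysis was possible because each stage is 1 column of means in the table, although its replicates are numbered, and for the same reason no replicate could be left out. Without read counts the precision of values under 1 TPM is unknown, which touches every member except TCF7L2 in at least 1 stage. Of the log2 ratios of single members under the alternatives, 152 kept their side of the limit, 18 fell under it, 11 passed it and 11 changed sign with hESCs as reference. Small ratios under the limit also changed sign: in SC-β organoids against PP, SOX9 became -0.17 and NR5A2 -0.063 with rescaling by median ratios, and -0.16 and -0.060 without the 100 most abundant genes. NKX6-2 in DE against hESCs became -0.026 with rescaling by median ratios, and PTF1A in SC-β organoids was at 0.033 against hESCs. With hESCs as reference the second stage of each ratio is another one, so that setting is a different comparison and not a different processing. The cause of the other changes was not tested, except that the 4-fold limit can only lower a count.

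With the 4-fold limit, 0 members were higher in PGT than in DE, 2 higher and 0 lower in PP than in PGT, 0 higher in SC-β organoids than in PP, and 2 lower in PH than in PP. With a pseudocount of 0.1 TPM, 2 members were lower in PP than in PGT (NR5A2 was added), and 2 were higher and 2 lower in SC-β organoids than in PP (NKX6-1 and PTF1A were added). In SC-β organoids against PP, rescaling by median ratios gave 0 higher and 2 lower, and leaving out the 100 most abundant genes gave 0 higher and 3 lower. Against hESCs, 0 members were lower in PGT, 5 were higher in SC-β organoids, and in PH 3 were higher and 1 lower. The log2 ratios that reversed against hESCs were those in PGT of MNX1 (0.54), NR5A2 (-0.67) and TCF7L2 (1.38), in PP of TCF7L2 (0.28), in SC-β organoids of PDX1 (1.36), NKX6-2 (0.27), MNX1 (2.50) and NR5A2 (-1.46), and in PH of PDX1 (0.025), NKX6-1 (0.32) and MNX1 (1.35). Without the 100 most abundant genes PDX1 in PP exceeded its next stage by 1.05, past 2-fold, and for MNX1 the log2 ratio of DE to PP became -0.13, or -0.066 with rescaling by median ratios.

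Among the gene lists, the 4-fold limit left 2 foregut factors and 0 acinar genes lower, 0 ductal genes higher and 1 lower, 0 cartilage genes higher and 0 lower, and 1 ventral neural gene higher in PP than in PGT. It left 2 endocrine factors and 5 β-cell genes higher and 0 β-cell genes lower in SC-β organoids than in PP, 5 mesenchymal genes higher in PH than in PP, and 0 Wnt genes lower in DE than in hESCs. With a pseudocount of 0.1 TPM, 7 acinar genes were higher and 3 lower, 2 ductal genes were higher and 5 ventral neural genes were higher in PP than in PGT. Without the 100 most abundant genes, 2 acinar genes were lower and 2 ductal genes higher. Rescaling by median ratios moved none of the list counts past 1.5 times. With no filter on low genes the share of all genes changed at each step was lower, between 0.939% and 12.9%.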
